A study of Mus musculus with 2 samples.

Results

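The Cd209a-positive dendritic cells of the liver labelled E18.5 were 69 of the 4721 cells kept from that library, 1.46% of them (exact binomial 95% interval 1.14 to 1.85%). A cell was taken when it held at least 1 UMI (a counted RNA molecule) of Cd209a and at least 10 of the class II genes H2-Aa, H2-Ab1 and H2-Eb1 summed. It also had to lack Xcr1, Clec9a and Cd79a and to hold under 5 UMIs of C1qa, C1qb and C1qc. Those counts chose the cells, so they are given as a description and nothing is supported with them. The study injected tdTomato-positive tetraploid (4N) embryonic stem cells into Hhex knockout mouse blastocysts and sequenced single cells of 1 liver labelled E18.5 (embryonic) and 1 labelled P180 (postnatal). Both livers carried the knockout and the 4N cells, and no liver without them is part of the series. With 1 library per stage there is no replicate and no test, and every interval covers counting error only. The gene table has 0 tdTomato features, so cells of the host and of the injected line could not be separated.

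Dendritic cells take up antigen, cut it into peptides and show these to T cells on class II molecules. Conventional dendritic cells fall into a type 1, which depends on Irf8 and Batf3 and cross-presents on class I, and a type 2, marked by Sirpa and often by the lectins Cd209a, Mgl2 and Clec10a. In mouse liver both types lie among the sinusoids and portal tracts beside resident macrophages and monocytes. Cd209a encodes a C-type lectin of the DC-SIGN family.

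The library labelled E18.5 went against its stage label in these genes, which are known for high levels before birth. Over the kept cells the fetal RNA-binding gene Igf2bp3 stood at 4.07 UMIs per 1000000 (CPM) here against 48.6 CPM in the library labelled P180. Lin28b stood at 0.0978 against 9.02 CPM. A list of 14 fetal and imprinted growth genes differed less, at 115.9 against 138.6 CPM in sum, and had 14 UMIs in 8 of the 69 cells. Stage and library cannot be told apart, so the wording "labelled E18.5" is kept. The 69 cells held 853629 UMIs, with a lowest of 3288, a median of 11519 and a highest of 29506 per cell. The 2 libraries shared 28 barcodes, and none belonged to a Cd209a-positive dendritic cell.

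The name was checked against 9 markers of type 2 dendritic cells other than Cd209a, all of which had UMIs. These markers summed to 1557 CPM, against 620.5 CPM in type 1 dendritic cells, 470.1 CPM in monocytes and 1104 CPM in C1q macrophages. Of the 1329 UMIs in this sum, Mgl2 held 354 and Clec10a 226. Without these lectins the sum was below that of macrophages. Single markers also went the other way, with Sirpa higher in monocytes and macrophages and Zbtb46 and Flt3 higher in type 1 cells. All 9 T cell markers and all 5 platelet markers were at 0, and 2 of 8 NK markers had 1 UMI each. Of 11 type 1 markers 9 had UMIs, 912.6 CPM in sum against 9084 CPM in type 1 cells, with Xcr1 and Clec9a at 0 by choice. Of 12 monocyte markers 10 had UMIs, among them Plac8 in 56 cells, Ms4a4c in 56 and Ccr2 in 45. The 12 summed to 1756 CPM, against 1012 CPM in type 1 cells and 1493 CPM in C1q macrophages. In monocytes, which some of them chose, they summed to 7912 CPM. B cell markers summed to 176.9 CPM, mostly Ighm, and neutrophil markers to 227.3 CPM, with 79 of 102 S100a9 UMIs in 1 cell. Hepatocyte markers summed to 82 UMIs over 35 cells. Haemoglobin UMIs lay mostly in 2 cells, with 2594 and 3277, while the other 67 cells held 0 to 20. Counts of genes repeated without the cells that carried markers of other classes are given below. Those classes were T, NK, B, endothelial and erythroid cells and neutrophils. The part of these RNAs in the results was otherwise not tested.

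Class II genes are switched on together through short promoter boxes, one of which is the Y box bound by the factor NF-Y. The H2-Aa and H2-Eb1 promoters are shown because these genes helped define the cells, and the Cd209a and Mgl2 promoters because these lectins are marks of type 2 cells. Sequences are from RefSeq, build GRCm38.p6 (the mm10 assembly), 250 bases before to 50 bases after the gene start, 5′ to 3′ on the gene's strand. Capitals mark the letters CTGATTGG, or CCAATCAG for the other strand, which hold the Y box core.
H2-Aa, chr17:34287774-34288073, minus strand: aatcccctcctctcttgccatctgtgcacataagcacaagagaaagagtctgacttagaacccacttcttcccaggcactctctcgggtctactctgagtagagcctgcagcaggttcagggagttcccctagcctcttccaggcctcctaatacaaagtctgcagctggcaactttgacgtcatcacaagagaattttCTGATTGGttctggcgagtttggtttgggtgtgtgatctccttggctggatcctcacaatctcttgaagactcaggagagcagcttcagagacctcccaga
H2-Eb1, chr17:34305617-34305916, plus strand: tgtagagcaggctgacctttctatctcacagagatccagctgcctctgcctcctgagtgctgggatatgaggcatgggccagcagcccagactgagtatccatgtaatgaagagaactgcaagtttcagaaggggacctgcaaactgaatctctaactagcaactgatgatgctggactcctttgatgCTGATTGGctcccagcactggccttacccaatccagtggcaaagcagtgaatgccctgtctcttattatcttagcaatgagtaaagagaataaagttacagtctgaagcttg
Cd209a, chr8:3748935-3749234, minus strand: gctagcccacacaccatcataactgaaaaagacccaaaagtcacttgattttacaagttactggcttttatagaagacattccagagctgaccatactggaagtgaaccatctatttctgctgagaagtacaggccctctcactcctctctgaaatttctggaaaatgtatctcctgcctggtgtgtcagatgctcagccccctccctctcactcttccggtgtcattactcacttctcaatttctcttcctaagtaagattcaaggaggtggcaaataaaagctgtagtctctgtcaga
Mgl2, chr11:70130107-70130406, plus strand: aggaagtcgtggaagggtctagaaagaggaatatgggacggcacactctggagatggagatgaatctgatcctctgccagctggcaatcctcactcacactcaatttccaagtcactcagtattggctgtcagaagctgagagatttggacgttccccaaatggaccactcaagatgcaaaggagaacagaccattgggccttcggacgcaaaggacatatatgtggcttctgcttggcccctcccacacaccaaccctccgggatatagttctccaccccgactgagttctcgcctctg
The word began 51 bases before the start of H2-Aa and 62 bases before that of H2-Eb1. It was not in the windows of Cd209a and Mgl2, and it was in 4.10% of 32851 promoters of this length. Only the full word was searched, and its shorter part ATTGG does stand in the Mgl2 window. The Mgl2 promoter is therefore not shown to lack a Y box core.

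Cd209a (chromosome 8, 3743397 to 3748984, minus strand, GENCODE M21 on mm10) had 524 UMIs in the 69 cells. Its lowest value was 1 UMI, its median 6 and its highest 40. Scaled to the depth of each cell, this ran from 0.532 over 5.16 to 19.8 per 10000 UMIs. In T cells, which lack the gene, 1 of 521 cells had a Cd209a UMI (0.192%), at a median depth of 5820 UMIs against 11519. H2-Aa ran from 4 over 114 to 276 UMIs per cell and Cd74, the invariant chain, from 28 over 235 to 548, a wide range within cells that were chosen for class II UMIs.

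Of 99 Cd209a-positive barcodes in the library, 97 passed the quality filters and 28 of these were left out by the other conditions. Class II under 10 UMIs left out 12 cells, Xcr1 or Clec9a 12, C1q 5 and Cd79a 4, with 5 cells falling under more than 1 condition. At the class II threshold there was a gap: the 7 cells left out by it alone held 0 to 5 UMIs, and the lowest value inside was 14. Those 7 cells had 0 UMIs of Mgl2, Clec10a and Itgax. At the Cd209a threshold, 7 cells held 1 UMI and 62 held 2 or more. Mgl2 stood at 260.6 CPM in the former and 434.2 CPM in the latter, Clec10a at 62.6 and 290.4 CPM. A further 112 cells met every condition but had no Cd209a, at a median depth of 7800 UMIs. They had less Mgl2 (47.8 CPM, 8 cells) and Clec10a (42.4 CPM, 17 cells) and more Ccr7, a receptor of migrating dendritic cells (131.6 against 32.8 CPM). They also carried more hepatocyte (1791 against 96.1 CPM), bile duct (1613 against 42.2 CPM) and B cell markers (764.4 against 176.9 CPM) and a lower class II median (44 against 351 UMIs), whose part in these differences was not tested.

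Against the 189 type 1 dendritic cells of the same library (Xcr1 or Clec9a, no Cd209a, median depth 18491 UMIs), the lectins Mgl2 and Clec10a stood furthest apart. Mgl2, a galactose-type lectin, had 354 UMIs (414.7 CPM, 95% interval 372.6 to 460.2) against 3 UMIs (0.871 CPM), a log2 ratio of 8.89 (exact conditional interval 7.34 to 11.18). Clec10a, a close paralog on the same chromosome (reads shared by the pair could be split in counting), had 264.8 against 0.581 CPM, a log2 ratio of 8.83 (6.96 to 11.89). Next came the lectin Clec4b1 at 268.3 against 6.97 CPM and Tnip3, an inhibitor of NF-kappaB signalling, at 249.5 against 8.42 CPM. Sirpa, the inhibitory receptor that marks type 2 cells, stood at 249.5 against 9.01 CPM, and Zeb2, a transcription factor of the myeloid line, at 629.1 CPM, a log2 ratio of 4.30 (4.00 to 4.61). Cybb, the NADPH oxidase subunit, was at 497.9 against 24.7 CPM, and Tmem176a, Tmem176b and Adgrl3 had log2 ratios of 4.25, 4.23 and 4.08.

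Several genes of type 1 cells were low, though not all. Irf8, a factor that type 1 cells depend on, had 46.9 CPM against 1836 CPM, a log2 ratio of -5.29 (-5.78 to -4.85). Batf3, the other such factor named above, had 90 UMIs in 44 cells (105.4 CPM) and was not 2-fold lower. The T cell-attracting chemokine Cxcl9 had 1 UMI against 563, a log2 ratio of -7.13 (-12.43 to -4.64). Ifi205 had 3 against 1122, -6.54 (-8.81 to -4.98). Clnk, an adaptor of immune receptor signalling, had 0 against 574 UMIs, which at a floor of 3 counts over the group is at least 47.4-fold lower. P3h2 had 0 against 537, at least 44.4-fold lower. Ccl22, a chemokine of mature dendritic cells, was at -5.74 (-11.05 to -3.25) and Nck2, an actin adaptor, at -5.45 (-8.50 to -3.59). Gm42962 was at -5.83 (-11.14 to -3.33), Gm43914 at -5.48 (-7.76 to -3.93) and the calcium channel gene Cacna1e at -5.26 (-7.55 to -3.71). Of 6861 genes with 50 or more UMIs in either group, 373 stood 2-fold or more above type 1 cells (5.44%) and 716 below (10.4%), 15.9% in all. Against the 46 type 1 cells without markers of other classes, a choice made after seeing the data, 360 of 2952 counted genes stood above (12.2%) and 268 below (9.08%), so the larger count changed sides. The type 1 cells held 3442559 UMIs, so 50 UMIs stood for 14.5 CPM there and 58.6 CPM in the Cd209a-positive cells. Genes of low level could therefore enter the count through the type 1 cells alone, and the median log2 ratio of all counted genes was -0.14.

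**Figure D1:**
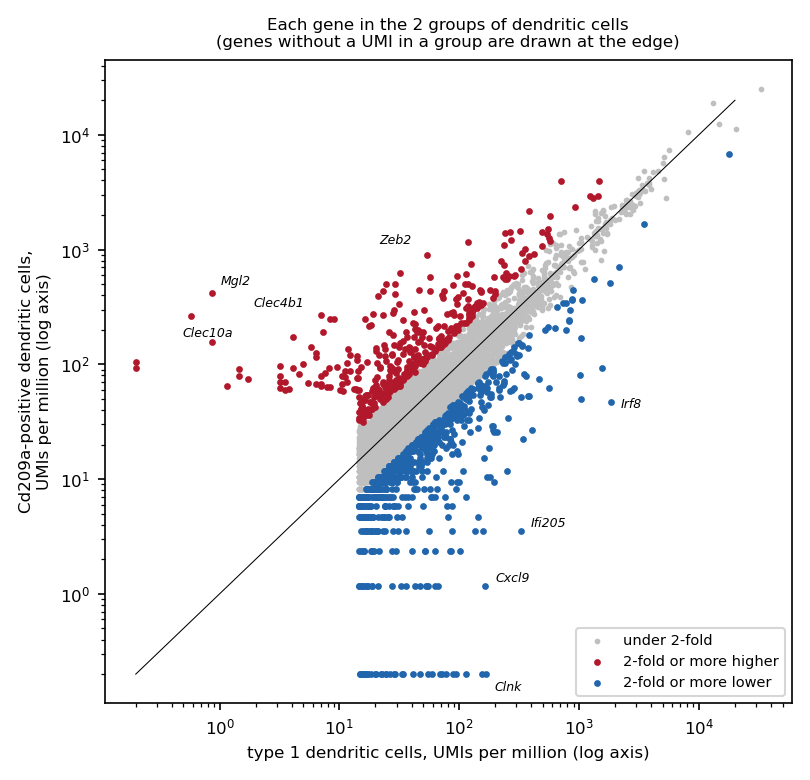
Each point is 1 gene with at least 50 UMIs in either group, by its level in type 1 dendritic cells (x, UMIs per 1000000, log axis) and in Cd209a-positive dendritic cells (y, UMIs per 1000000, log axis); red and blue mark at least 2-fold higher and lower, the line marks equal levels, and genes with 0 UMIs in a group sit at its edge. Mgl2 (414.7 against 0.871 CPM) and Clec10a (264.8 against 0.581 CPM) lie far above the line and Irf8 (46.9 against 1836 CPM) far below it.

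Among class II loading and trafficking genes, 5 of the 13 counted against type 1 cells were at least 2-fold higher and 0 lower, with a median log2 ratio of 0.13. Of all genes counted in that comparison, 5.44% were higher and 10.4% lower. The 5 were H2-DMb2 and H2-Oa, subunits of the peptide exchange and its inhibitor, the reductase Ifi30 and the endosomal proteases Ctss and Lgmn. H2-DMb2 had 242.5 against 56.1 CPM, H2-Oa 230.8 against 113.3 CPM and Ifi30 926.6 against 337.2 CPM. Ctss had 1004 against 352.1 CPM and Lgmn 146.4 against 28.8 CPM. The class II transactivator Ciita was at 288.2 against 358.7 CPM, a log2 ratio of -0.32. Cd74 was at 18810 against 13170 CPM, under 2-fold apart. Of 14 genes of class I presentation, 0 were higher and 7 at least 2-fold lower, with a median of -0.91. They included Wdfy4, needed for cross-presentation (509.6 against 1829 CPM), the immunoproteasome subunit Psmb9 (199.1 against 524.3 CPM), its activator Psme1 (344.4 against 777.3 CPM) and the peptide transporters Tap1 and Tap2 (80.8 against 191.4 and 42.2 against 105.2 CPM). B2m, the light chain of class I, was at 1771 against 1430 CPM.

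Uptake receptors went the other way: 7 of 11 counted lectins and uptake receptors were at least 2-fold higher than in type 1 cells and 2 lower, with a median of 3.32. The shares over all counted genes were 5.44% and 10.4%. The inhibitory lectin Clec4a2 stood at 125.3 against 6.39 CPM, the inhibitory Fc receptor Fcgr2b at 146.4 against 23.5 CPM and the Fc receptor gamma chain Fcer1g at 1174 against 117.9 CPM. The 2 lower genes were Ly75 (DEC-205), with 0 UMIs against 77.6 CPM, and the scavenger receptor Cd36, at 9.37 against 194.6 CPM. Among pattern recognition genes, Tlr3 and Tlr11, sensors of type 1 cells, were at 11.7 against 249.2 and 18.7 against 77.6 CPM, and Tlr12 had 0 UMIs. The inflammasome gene Nlrp3 was at 101.9 against 20.6 CPM.

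Of 26 counted dendritic cell transcription factors, 8 were at least 2-fold higher than in type 1 cells and 2 lower (Irf8 and Id2), with a median of 0.85. The shares over all counted genes were 5.44% and 10.4%. Irf4, the counterpart of Irf8 in type 2 cells, had 45 UMIs in 29 cells (52.7 CPM) against 1.16 CPM, a log2 ratio of 5.50 (4.05 to 7.44), though under the minimum of 50 UMIs. Klf4 was at 793.1 against 224.5 CPM, Batf at 117.1 against 13.9 CPM and Bhlhe40 at 192.1 against 36.3 CPM. Zbtb46, a factor of conventional dendritic cells, had 106 UMIs in 46 cells, 124.2 CPM against 200.7 CPM in type 1 cells. It was at 3.34 CPM in monocytes and 2.95 CPM in macrophages, and in T cells 3.26% of cells had a Zbtb46 UMI against 66.7% here. Thinned to 1000 UMIs per cell, 11.6% of the Cd209a-positive cells kept one. Flt3, the growth factor receptor of dendritic cells, followed a like order, with 110.1 CPM against 267.0, 17.8 and 1.97 CPM in type 1 cells, monocytes and macrophages. Csf1r, the receptor of monocytes and macrophages, was at 131.2 CPM, a log2 ratio of 2.71 over type 1 cells, against 357.6 CPM in monocytes, which it helped choose, and 569.8 CPM in macrophages.

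**Figure D2:**
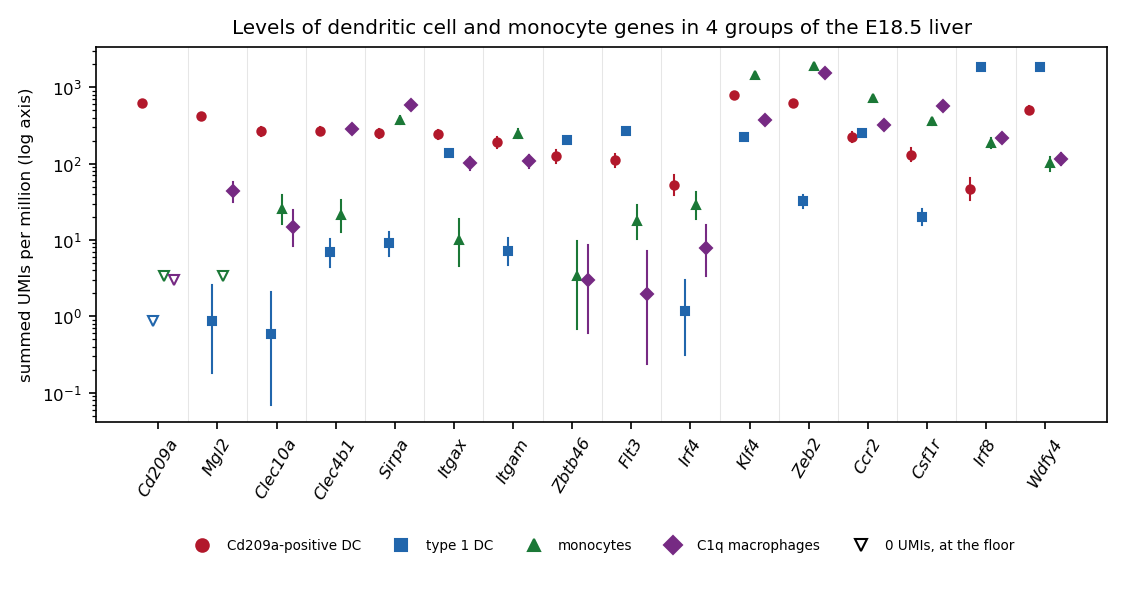
Levels of 16 genes (UMIs summed over the cells of a group per 1000000, log axis) in Cd209a-positive dendritic cells, type 1 dendritic cells, monocytes and C1q macrophages of the library labelled E18.5, with bars for exact Poisson 95% intervals and open triangles for 0 UMIs at a floor of 3 counts. Mgl2 and Clec10a are highest in the Cd209a-positive cells, Zbtb46 and Flt3 are above monocytes and macrophages and below type 1 cells, and Sirpa, Zeb2 and Csf1r lie between type 1 cells and the other 2 groups. Cd209a chose the cells, and Csf1r helped choose the monocytes.

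Integrins and adhesion genes gave 3 higher and 4 lower of 17 counted against type 1 cells, beside 5.44% and 10.4% of all counted genes. Itgam (CD11b) was at 189.8 against 7.26 CPM and Sirpa was given above, while Itgae (CD103) was at 10.5 against 181.6 CPM and the adhesion molecule Cadm1 at 80.8 against 1027 CPM. Itgax (CD11c), shared by dendritic cells, was at 241.3 CPM against 136.5 CPM in type 1 cells, 10.0 CPM in monocytes and 100.4 CPM in macrophages. Among co-stimulatory genes, Cd83 was at 1149 against 602.7 CPM and Cd86 at 418.2 against 246.0 CPM, but 96 of the 357 Cd86 UMIs came from 1 cell. Cd24a was at 52.7 against 376.8 CPM. The chemokine receptor Ccr2 differed little from type 1 cells (222.6 against 247.5 CPM).

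Against the 107 monocytes (median depth 8338 UMIs, chosen by Csf1r with monocyte genes and under 10 class II UMIs), Mgl2 had 354 UMIs against 0, at least 124-fold higher at the floor of 3 counts. Ctnnd2 had 233 against 0, at least 81.7-fold higher. The cyclin Ccnd1 was at 495.5 against 5.57 CPM, the receptor Klrd1, also a gene of NK and T cells, at 296.4 against 12.3 CPM and Slamf7 at 242.5 against 17.8 CPM. Gpr183, the oxysterol receptor that positions dendritic cells, was at 435.8 against 33.4 CPM, with 77 of its 372 UMIs in 1 cell. Rtn1, Clec4b1 and Hdac9 had log2 ratios of 3.68, 3.66 and 3.39. Of 3256 counted genes 315 stood 2-fold or more above monocytes (9.67%) and 402 below (12.3%), 22.0% in all. Without the 41 cells that carried markers of other classes, 28 cells were left. With these, 149 of 2823 counted genes stood above and 432 below. Fewer cells hold fewer UMIs, so fewer genes could enter the count through them, and the part of this was not tested.

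Monocyte genes were low in turn. Plcb1, a phospholipase, had 2 UMIs against 855, a log2 ratio of -8.67 (-11.72 to -6.81), and the protease inhibitor Slpi 2 against 430, -7.68 (-10.73 to -5.81). Fibronectin (Fn1) was at 10.5 against 1113 CPM and haptoglobin (Hp) at 9.37 against 637.3 CPM. F10 and Vcan had 0 UMIs, at least 66.2-fold and at least 64.0-fold lower. Arhgef37 was at -6.05 (-8.34 to -4.48) on the log2 scale, and Mgst1, Sgms2 and Gda at -5.83, -5.75 and -5.51. Of all genes counted against monocytes, 9.67% were higher and 12.3% lower. Of 16 counted lectins and uptake receptors, 3 were higher and 9 lower (median -1.19). The inhibitory lectins Clec4a1 and Clec4a3 were at 62.1 against 261.8 and 45.7 against 316.4 CPM, and Clec4e, a sensor of mycobacterial lipid, at -6.53 on the log2 scale (-9.58 to -4.66). Of 26 transcription factors, 7 were higher and 6 lower (median -0.11). Zbtb46, Bcl11a and Rbpj had log2 ratios of 5.22, 2.79 and 1.85, and Cebpb, a factor of monocytes, -3.65. Of 7 counted cell division genes 4 were higher, among them Top2a (74 UMIs against 1, log2 ratio 6.28, 3.76 to 11.60) and Tubb5, with 278 of its 421 UMIs in 6 cells described below.

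Against the 138 C1q macrophages (median depth 7183 UMIs), the genes highest in Cd209a-positive cells were Klrd1 (296.4 against 10.8 CPM), H2-Oa (230.8 against 8.86 CPM) and Eps8 (297.6 against 11.8 CPM). Clec10a had 264.8 against 14.8 CPM, and the transcriptional corepressor Cbfa2t3 456.9 against 27.6 CPM. The aspartic protease Napsa was at 428.8 against 27.6 CPM, Lsp1 at 951.2 against 62.0 CPM and H2-DMb2 at 242.5 against 16.7 CPM. Gpr183 and Rgcc had log2 ratios of 3.98 and 3.79. Mgl2 was at 43.3 CPM in macrophages, and Clec4b1 differed little (268.3 against 280.5 CPM). In this comparison 308 of 3645 genes stood 2-fold or more above macrophages (8.45%) and 570 below (15.6%), 24.1% in all. With the 28 Cd209a-positive cells that carried no markers of other classes, 177 of 3366 counted genes stood above and 618 below. After macrophages with markers of other classes were left out, a choice made after seeing the data, 36 of the 138 remained, and against these 627 of 2745 counted genes stood above and 173 below, so the larger count changed sides.

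Genes of lipid handling and engulfment were among the lowest against macrophages. Apoe, a lipid carrier, was at 285.8 against 16370 CPM, and 194 of its 244 UMIs came from 1 cell. Trem2, a lipid sensor, had 1 UMI against 219, a log2 ratio of -7.52 (-12.83 to -5.03), and Mertk, a receptor for dying cells, 3 against 292, -6.35 (-8.64 to -4.79). Abca1, a cholesterol exporter, was at 5.86 against 201.7 CPM. Vsig4, a complement receptor, had 0 UMIs, at least 64.4-fold lower. Cd207 (langerin) was at 29.3 against 993.9 CPM, and all 25 of its UMIs came from 1 cell. Ms4a7 was at -6.37 (-8.66 to -4.81) on the log2 scale, and Cxcl14, Negr1 and Itga9 at -5.57, -5.37 and -5.09. Of all genes counted against macrophages, 8.45% were higher and 15.6% lower. Of 12 counted genes of retinoid, lipid and iron handling, 0 were higher and 11 lower (median -2.27), among them Hmox1 (93.7 against 379.9 CPM) and Plin2 (154.6 against 575.7 CPM). Of 17 lectins and uptake receptors 2 were higher and 13 lower (median -2.01), among them the mannose receptor Mrc1 (53.9 against 326.7 CPM) and Fcgr4 (52.7 against 561.9 CPM). Of 11 interferon response genes 0 were higher and 8 lower (median -1.65), including Isg15 at 79.7 against 326.7 CPM.

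**Figure D3:**
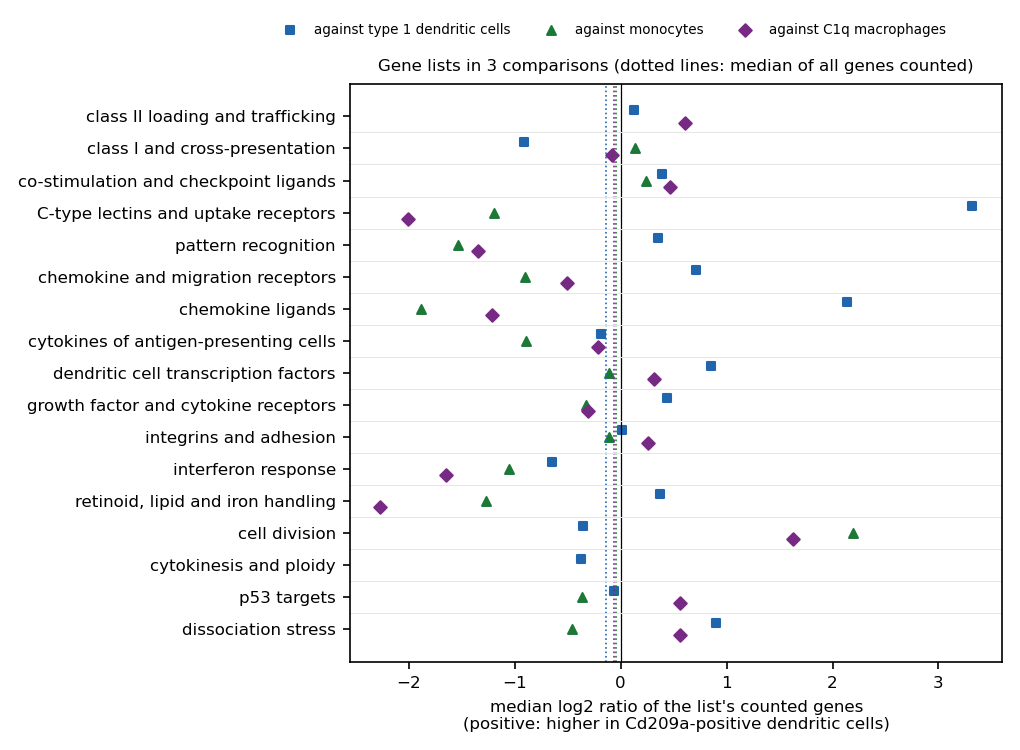
Median log2 ratio of each gene list (rows) in Cd209a-positive dendritic cells over type 1 dendritic cells (squares), monocytes (triangles) and C1q macrophages (diamonds), for lists with at least 3 counted genes, with dotted lines at the median of all genes counted. Lectins and uptake receptors lie at 3.32 against type 1 cells and at -1.19 and -2.01 against monocytes and macrophages.

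Chemokine genes differed in direction between the comparisons. Of 11 counted chemokine ligands, 7 were at least 2-fold higher than in type 1 cells and 3 lower (median 2.14), while 6 of 10 were lower than in monocytes and 6 of 10 lower than in macrophages. Over all counted genes, 5.44% were higher and 10.4% lower than in type 1 cells. The shares lower than in monocytes and macrophages were 12.3% and 15.6%. Cxcl2, which draws neutrophils, was at 435.8 CPM against 74.1 CPM in type 1 cells, 2706 CPM in monocytes and 1028 CPM in macrophages. It was found in 18 of the 69 cells, with a highest value of 75 UMIs. Il1b, the inflammasome cytokine, was in 40 cells at 494.4 CPM against 88.0, 736.4 and 512.7 CPM in the same order. Cxcl9 had 1 UMI and Ccl5 7. Fscn1, Il6, Il12a and Il12b were at 0, which at a floor of 3 counts allows up to 3.51 CPM.

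Immediate early and heat shock genes, which can be induced while tissue is dissociated, were found in 31 (Ier3) to 69 of the 69 cells, and 15 of the 18 genes listed in 60 or more. Of 18 such genes 8 were at least 2-fold higher than in type 1 cells and 0 lower (median 0.90), beside 5.44% and 10.4% of all counted genes. Atf3 was at 2153 against 380.5 CPM and Hspa1b at 3940 against 1470 CPM, and Fos ran from 0 over 31 to 134 UMIs per cell. Against monocytes 0 of 18 were called either way (median -0.46), beside 22.0% of all counted genes. Against macrophages 1 was higher (median 0.56), beside 8.45% of all counted genes. The part of dissociation in the other differences was not tested.

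Within the 69 cells the lectins were uneven. Mgl2 was found in 40 cells and Clec10a in 46, both in 32 and neither in 15. Cells with and without Mgl2 had near depths (medians 11533 and 10799 UMIs). Among the 29 cells without Mgl2, Clec10a stood at 208.4 CPM against 301.3 CPM in those with it, and Cd209a at 571.7 against 641.2 CPM. Thinned to 1000 UMIs per cell, Mgl2 was found in 23.2% and Clec10a in 14.5% of cells, so a cell without a UMI is not shown to lack the RNA. No T cell of 521 had an Mgl2 UMI, which allows a share of up to 0.576%, and 0.192% had one of Clec10a. Plac8 stood at 1623 CPM in the cells without Mgl2 and 706.9 CPM in those with it. Sirpa was in 59 cells, Itgax in 58, Clec4b1 in 53, Ccr2 in 45 and Flt3 in 45.

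Ly6c2, a surface protein gene of classical monocytes, was found in 8 of the 69 cells, and 3 of these held 19, 29 and 34 UMIs while the other 5 held 1 each. Of the T cells 30.3% had a Ly6c2 UMI. All 8 cells had Ccr2. Summed over the 8 cells, Plac8, another gene of monocytes, was at 2807 CPM against 878.0 CPM in the other 61, and Klf4 at 1362 against 731.3 CPM. H2-Aa was at 6366 against 9517 CPM and Itgax at 143.3 against 252.0 CPM, while Cd209a was at 752.5 against 598.8 CPM. Cd209d, another lectin of the DC-SIGN family on chromosome 8, close enough in sequence that shared reads could be split, had 34 UMIs in 8 cells, all with Ccr2, and 4 of the 8 were Ly6c2-positive. It was at 298.6 CPM in the Ly6c2-positive cells against 11.7 CPM in the rest, with 13 and 9 UMIs in 2 of the 3 cells high in Ly6c2. Cd7 was at 203.1 against 20.8 CPM, and 2 cells held 7 UMIs each. Cd86 was at 1194 CPM in the Ly6c2-positive cells, almost all from the 1 cell named above. These splits were chosen after the values were seen, and the groups are cells of 1 liver.

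**Figure D4:**
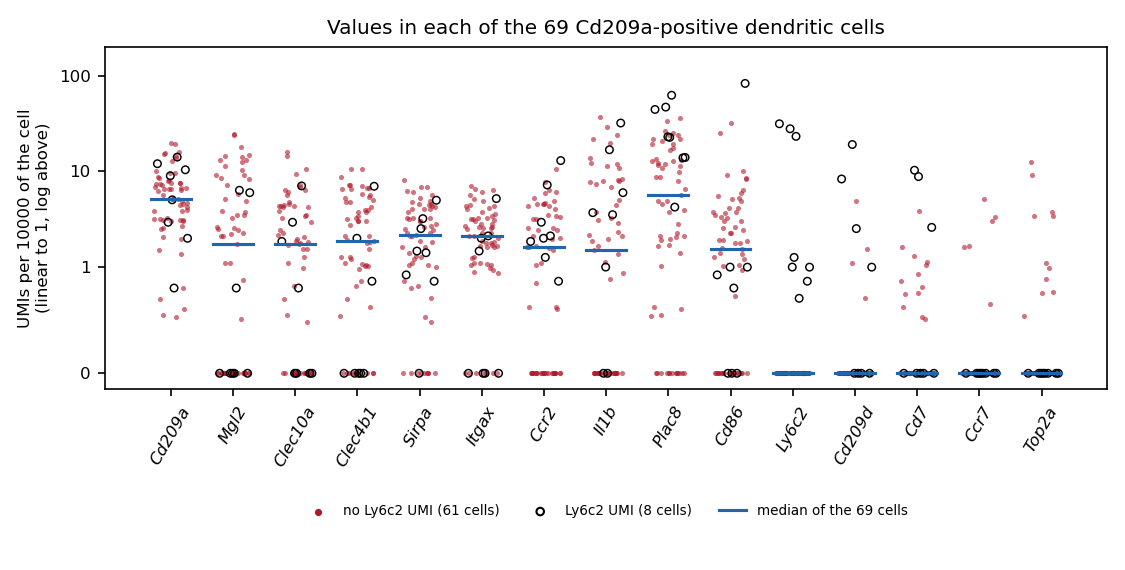
UMIs per 10000 UMIs of the cell (y, linear to 1 and logarithmic above) for 15 genes in each of the 69 Cd209a-positive dendritic cells, with open circles for the 8 cells with a Ly6c2 UMI and lines for the median of all 69. The median is 5.16 for Cd209a and 0 for Ly6c2, Cd209d, Cd7, Ccr7 and Top2a, and the 3 cells highest in Ly6c2 stand well apart from the other 5.

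Few cells carried both Mki67 and Top2a, and few carried Ccr7. Mki67 and Top2a, a marker and an enzyme of dividing cells, were both found in 6 cells, whose median depth was 22083 UMIs against 10799 in the other 63. Tubb5 was at 2131 against 197.7 CPM and Hmgb2 at 2575 against 211.6 CPM in these cells. Cd209a was lower there (237.6 against 681.7 CPM), as was Clec10a (76.6 against 298.7 CPM), while H2-Aa (9113 against 9225 CPM) was near. Mgl2 was at 429.2 against 412.1 CPM, but 3 of the 6 cells had 0 UMIs of it and 1 cell held 34 of the 56, without which the level was 205.8 CPM. Ccr7 was in 6 cells with 28 UMIs in all, of which 14 lay in 1 cell, and Zbtb46 was in all 6. The median depth of these cells was 15852 UMIs against 11325 in the other 63. Of 10 markers of mature migratory dendritic cells, Ccr7 among them, 6 had UMIs and 4 were at 0. At least 1 of them was found in 38 of the 69 cells, and Relb alone in 31. Cd83 was at 1766 CPM in the Ccr7-positive cells against 1066 CPM, Il1b at 1016 against 424.0 CPM and H2-Aa at 8801 against 9263 CPM.

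Compared with the other 4652 cells of the library, the leading genes with at least 200 UMIs were Clec10a (264.8 against 4.86 CPM, 54.5-fold), Mgl2 (414.7 against 8.65 CPM, 47.9-fold) and Tnip3 (249.5 against 12.0 CPM, 20.7-fold). Clec4b1, Ctnnd2, Ptpro, Adgrl3, Rtn1, Itgax and Pid1 followed, with log2 ratios from 3.64 to 2.71. Eps8, Dapk1, Klrd1, Ifi30, Cd300a, Gm2a, Bach1, Ms4a6c, Trerf1 and Rassf4 came next, from 2.53 to 2.10. In all 822 of 13626 genes stood 2-fold or more above the other cells (6.03%) and 3502 below (25.7%), 31.7% either way. This comparison uses the cells that the choice rests on, with the genes of the conditions left out, and is a description.

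Hhex, the gene knocked out in the host, had 62 UMIs in 34 cells (72.6 CPM, 55.7 to 93.1). Its level was 51.7 CPM in type 1 dendritic cells, 72.4 CPM in monocytes and 76.8 CPM in macrophages. The deleted stretch of the gene is not stated in the sources used, so these 3′ counts do not check the knockout. Xist, expressed from the inactive X chromosome of females, was in 67 of the 69 cells.

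The same conditions took 2 of 9582 cells in the library labelled P180, so no ratio was made. These 2 cells held 11 and 1 Cd209a UMIs, and Mgl2 and Clec10a were at 0 in both. Their H2-Aa counts were 104 and 68, their Sirpa counts 7 and 3. Ccl4, a chemokine, had 117 and 31 UMIs. It was also found in 30 of the Cd209a-positive cells of the library labelled E18.5, with up to 87 UMIs. Xist was at 0 in both P180 cells, and both held UMIs of Y-linked genes.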

How the data were processed

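Single cells of 2 mouse livers, 1 library each, were sequenced with 10x Chromium 3′ v3 chemistry (per the labels' protocols). UMI counts per gene and barcode were deposited, and the file headers name Cell Ranger 7.1.0. The submitters' processing notes also name fastp, Trimmomatic, Seurat, edgeR and mm10, with no role given. Barcodes were kept from 200 genes and 500 UMIs upwards when mitochondrial genes took under 25% of UMIs. Counts were summed over the cells of a group and scaled to CPM, with exact Poisson intervals for levels, exact binomial (Clopper-Pearson) intervals for shares and exact conditional intervals for ratios, all at 95%. A gene was counted in a comparison with at least 50 UMIs in either group, was called at 2-fold, and a count of 0 was set to a floor of 3 over the group. Genes that a group's conditions used were left out, for monocytes with all class II genes. T cells held at least 2 Cd3d, Cd3e and Cd3g UMIs and no Cd79a. The named genes were the 10 highest and 10 lowest ratios of each comparison with at least 200 UMIs over both groups, the 20 leading genes over other cells, and the gene lists. Named genes could not be markers of a class outside the comparison. Where a gene outside this rule is named, it was chosen after its values were seen. The cells, lists and groups were chosen with earlier results of these data known. Lists were described by counts and medians, with no test. Doublets were scored with Scrublet (scanpy 1.11.5, seed 1) and left out only in an alternative. The procedure was tested on simulated counts. Python 3.11.15, numpy 2.4.6, pandas 2.3.3, scipy 1.17.1 and matplotlib 3.10.9 were used. The library labelled E18.5 held 37709972 UMIs in 9871 barcodes and that labelled P180 90128038 in 9771. Alternatives changed the filters, the thresholds, the scaling, the weighting and the cells.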

Additional observations from a re-analysis of the deposited data

Results flagged for a closer look

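In the library labelled P180, which the comparisons did not use, Cd209a was found in 7 barcodes, where a count of 0 would have allowed 3. They held 40 UMIs of it, and 2 of the 7 met the conditions of a Cd209a-positive dendritic cell. Of the other 5, 4 held Xcr1 or Clec9a UMIs, 2 had under 10 class II UMIs and 1 had Cd79a, with 2 under more than 1 condition.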

How the results depend on the processing

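No paired analysis was possible because each stage has 1 library. The alternatives repeated 60 ratios, the 10 highest and 10 lowest against type 1 cells, monocytes and macrophages. All 60 stayed at least 2-fold on the same side under the 16 alternatives that applied to them. Of these alternatives, 4 were chosen after seeing the data. The ratios were picked as the most extreme of the same cells, so this adds no support to them. The 20 leading genes over other cells were not repeated. The share of 1.46% became 2.27% with a mitochondrial limit of 10% and 0.982% with none, where the number of all cells kept moved most. Of the 69 cells, 3 were among the 178 barcodes with the highest doublet scores. With at least 20 UMIs per gene, the higher and lower counts became 657 and 1177 of 9344 genes against type 1 cells. They became 777 and 666 of 6027 against monocytes and 605 and 1030 of 6644 against macrophages. With at least 1 UMI they became 5114 and 1485 of 16495, 3162 and 2326 of 14495, and 2738 and 2921 of 15339. Genes of few counts enter here, and the floor of 3 counts can reverse their side. Against monocytes, Ly75 with 0 UMIs against 1 was called higher (log2 value 1.66). Marco with 1 UMI against 0 was called lower (-1.51). The counts at this minimum therefore give no direction. Without the 41 cells that carried markers of other classes, 28 cells were left. Against monocytes 149 genes were then higher and 432 lower of 2823, and against macrophages 177 and 618 of 3366. When compared cells with such markers were left out, 46 type 1 cells gave 360 higher and 268 lower of 2952 genes, and 36 macrophages gave 627 higher and 173 lower of 2745, with a median of 0.47 for pattern recognition genes in place of -1.35. Such markers were cut by UMIs not scaled to depth, so deep cells could be left out first. Fewer cells also hold fewer UMIs, and genes could then enter more through the other group. The part of this in the changed counts was not tested. With 69 cells, genes under 3.51 CPM could not be told from 0.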
